A study of Mus musculus with 12 samples.

Results

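The 43 genes described here encode the light-detecting machinery of rod and cone photoreceptors, measured by RNA sequencing in corneal endothelium of mice with and without a collagen VIII mutation. They were taken by symbol from a list of photoreceptor and phototransduction genes that was drawn up with earlier results of these data known, by a rule that names genes and uses no threshold on their values, and are 43 of the 32761 genes in the deposited count table. Of the 43, 11 are assigned here to rods, 10 to cones and 22 to both kinds of photoreceptor. None of them is among the listed markers of the corneal endothelium. They do not form 1 readout of photoreceptor RNA. Unc119, Nr2e3, Cngb1, Gnb3, Gngt2 and others did not follow the rod transducin gene Gnat1 across libraries.

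Phototransduction in rods and cones is a G-protein cascade. An opsin that has absorbed light activates transducin, whose alpha subunit (Gnat1 in rods, Gnat2 in cones) releases the catalytic subunits of phosphodiesterase 6 from their inhibitory gamma subunit. Cyclic GMP then falls, the cyclic nucleotide-gated channel closes and the cell hyperpolarises. Arrestin, rhodopsin kinase, the RGS9 complex and the guanylate cyclases with their activating proteins end the response. Prph2 and Rom1 shape the outer segment discs, and the transcription factors Crx, Nrl and Nr2e3 set photoreceptor fate. The corneal endothelium is a single layer of pump cells on the back of the cornea, faces the anterior chamber and holds no photoreceptors.

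The study held 12 polyA RNA libraries of mouse corneal endothelium in 4 groups of 3. Mutant mice were homozygous for Col8a2 Q455K, a change in a collagen of Descemet's membrane used as a model of Fuchs endothelial corneal dystrophy, and the controls were wild type. Early-stage mice were up to 2 months old and late-stage mice 8 months or older, and all early libraries were labelled batch 1 and all late ones batch 2, so stage and batch cannot be told apart. The submitters call the 3 samples of a group biological replicates and do not say how many animals or eyes went into each, so the p-values measure the spread between these samples. Strain and sex are not stated in the labels used here.

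Total counts per library ran from 19722598 in early wild-type library 2 to 39431676 in early mutant library 1, so that 3 counts, the limit that a count of 0 allows, corresponded to a CPM of 0.0761 to 0.152 (CPM, the count scaled to the library's total). Summed over the 16 listed corneal endothelial genes, the level was 8812 to 16468 CPM in every library, against 244.1 to 693.6 CPM for all 43 photoreceptor genes, which took 0.0257% to 0.0688% of all counts. Late wild-type library 1 stood apart from its group: its counts differed from those of libraries 2 and 3 with a chi-square per gene of 234.8 and 236.8, against 59.1 between the other two. CPM values also carry a scaling for library composition, and levels of different genes are compared only as FPKM, which also divides by gene length.

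The stretches in front of 5 of the genes are shown with their matches to motifs of the photoreceptor factors Crx and Nrl. Pde6b was higher in early mutants, Nr2e3 was lower in late mutants, and Sag, Rbp3 and Aipl1 were the members holding both motifs in the same stretch. Unc119, which has several RefSeq starts, held them in separate stretches. Each run is the 250 bases before the RefSeq start in build GRCm38.p6, 5′ to 3′ on the gene's own strand. Capitals mark TAATCC, the core of the Crx motif, or its reverse complement GGATTA, and TGCTGA, the half-site of the Nrl motif, or its reverse complement TCAGCA. The 2 motifs do not overlap in these runs.
Pde6b, chr5:108388123-108388372, plus strand: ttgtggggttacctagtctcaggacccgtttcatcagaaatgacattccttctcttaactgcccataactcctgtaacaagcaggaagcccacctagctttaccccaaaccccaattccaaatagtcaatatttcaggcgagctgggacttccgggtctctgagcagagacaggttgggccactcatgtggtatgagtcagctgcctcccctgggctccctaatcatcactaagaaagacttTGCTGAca
Sag, chr1:87803430-87803679, plus strand: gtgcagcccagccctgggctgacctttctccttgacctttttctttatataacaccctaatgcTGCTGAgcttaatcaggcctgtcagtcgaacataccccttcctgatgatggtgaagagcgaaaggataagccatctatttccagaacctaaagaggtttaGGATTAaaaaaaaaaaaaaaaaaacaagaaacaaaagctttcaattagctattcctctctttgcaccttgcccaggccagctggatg
Rbp3, chr14:33953753-33954002, plus strand: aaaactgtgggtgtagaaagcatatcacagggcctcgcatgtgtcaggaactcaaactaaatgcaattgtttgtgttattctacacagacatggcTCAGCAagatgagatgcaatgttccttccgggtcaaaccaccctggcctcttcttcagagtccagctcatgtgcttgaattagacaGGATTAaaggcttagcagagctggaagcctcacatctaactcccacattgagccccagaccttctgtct
Aipl1, chr11:72037510-72037759, minus strand: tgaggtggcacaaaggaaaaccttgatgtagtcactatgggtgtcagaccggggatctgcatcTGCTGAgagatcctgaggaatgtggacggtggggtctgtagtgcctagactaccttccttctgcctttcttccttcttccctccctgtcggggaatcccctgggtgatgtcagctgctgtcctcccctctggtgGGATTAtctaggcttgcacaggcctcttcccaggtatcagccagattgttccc
Nr2e3, chr9:59950080-59950329, minus strand: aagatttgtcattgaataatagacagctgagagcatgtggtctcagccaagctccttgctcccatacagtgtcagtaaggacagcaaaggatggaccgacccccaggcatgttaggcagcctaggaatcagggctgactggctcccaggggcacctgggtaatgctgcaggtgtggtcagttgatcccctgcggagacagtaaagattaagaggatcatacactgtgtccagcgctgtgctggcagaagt

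RefSeq promoters were matched for 31 of the 43 genes, giving 34 windows of 250 bases. The Crx core lay in 13 of the 34 (38.2%), against 6.25% of 32851 windows of all genes. The Nrl half-site lay in 8 of the 34 (23.5%), against 16.1%, and both lay in 3 (8.8%), against 0.962%. In Sag the Crx core began 87 bases before the start and the Nrl half-site 187. In Rbp3 they began at 69 and 155 bases, and in Aipl1 at 53 and 187. In Pde6b the Nrl half-site began 8 bases before the start, with no match to the Crx core. The windows of Nr2e3, Prph2 and Pdc held neither set of letters. These matches describe sequence and were not tested for binding.

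Ordered by mean FPKM over the 12 libraries, the highest genes were not the classical rod genes. Unc119, a chaperone that binds the lipid tail of transducin and is also made outside the retina, led with 91.5 FPKM. Nr2e3, a nuclear receptor that represses cone genes in rods, followed with 31.5, and Rom1 with 28.2. Guca1a, a guanylate cyclase activator, was at 18.8, Pde6g, the inhibitory subunit of the rod phosphodiesterase, at 17.4 and Gnat1 at 12.2 FPKM. Opn1mw and Opn1sw, the middle- and short-wavelength cone opsins, were at 1.86 and 1.29 FPKM. The lowest mean, 0.0222 FPKM, was that of Cngb3, the beta subunit of the cone channel. In all, 28 of the 43 genes had more than 3 counts in every library. Early mutant library 2 held the highest CPM of 11 members and late mutant library 3 that of 8. Early wild-type library 3 held the lowest of 12 and late wild-type library 1 that of 11. In these counts of the lowest, a gene at 0 in several libraries, such as Rp1l1 or Pde6c, was credited to only the first of them.

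**Figure D1:**
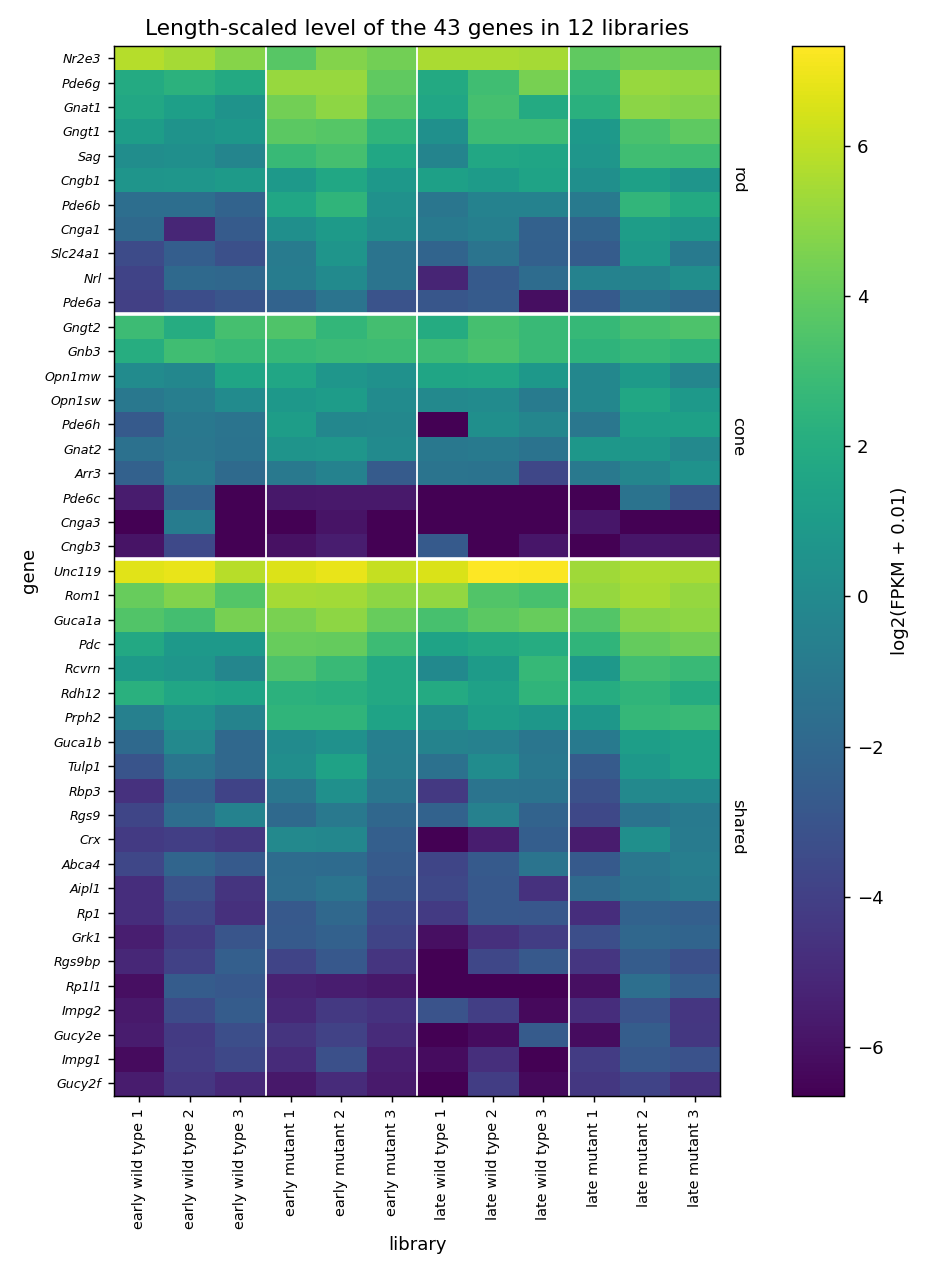
Level of the 43 genes (rows, in rod, cone and shared blocks) in the 12 libraries (columns, grouped by white lines), coloured by log2 of FPKM plus 0.01. Most rod genes are brighter in the early mutant libraries and in late mutant libraries 2 and 3, while Unc119 is brightest in late wild-type libraries 2 and 3.

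The share of the 2 highest genes shifted between groups. Unc119 and Nr2e3 together made up 33.3%, 37.7% and 40.8% of the members' summed FPKM in early mutant libraries 1 to 3, but 70.1%, 68.6% and 53.0% in early wild type. In late mutants the share was 36.7%, 22.3% and 22.8%, and in late wild type 63.0%, 68.1% and 64.9%. In this share the genotypes did not overlap at either stage. For that reason rod and shared sums are given below with and without these 2 genes, a choice made after the values were seen.

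All 11 rod genes summed to 148.0 to 293.7 CPM in early mutants and 82.3 to 185.7 CPM in early wild type, and to 79.0 to 229.0 CPM in late mutants and 132.6 to 213.6 CPM in late wild type, with overlap at both stages. Without Nr2e3, the 10 other rod genes summed to 189.5, 234.2 and 99.4 CPM in early mutants and to 41.1, 29.6 and 27.6 CPM in early wild type. In late mutants they summed to 44.1, 180.2 and 187.1 CPM, and in late wild type to 35.8, 93.2 and 93.4 CPM. Late mutant library 1 was thus close to the lowest late wild-type library, and the late groups overlapped. All 22 shared genes summed to 226.2 to 367.8 CPM in early mutants, 135.9 to 256.0 in early wild type, 161.1 to 253.5 in late mutants and 205.5 to 363.4 in late wild type. Their late mean was lower in mutants, 213.4 ± 47.4 CPM against 298.8 ± 82.7 CPM (SD, n = 3 each), with overlap. The 21 shared genes other than Unc119 summed to 181.7, 186.8 and 112.2 CPM in early mutants and to 68.9, 67.8 and 59.4 CPM in early wild type. The late sums were 98.1, 164.0 and 183.4 CPM in mutants and 76.9, 79.2 and 78.7 CPM in wild type, without overlap and with the order of the genotypes turned by leaving out that 1 gene. The 10 cone genes differed less, with 31.8 to 38.8 CPM in early mutants, 21.9 to 25.9 in early wild type, 24.7 to 32.0 in late mutants and 23.6 to 41.5 in late wild type. In bulk tissue, more cells of a type and more RNA per cell cannot be told apart.

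**Figure D2:**
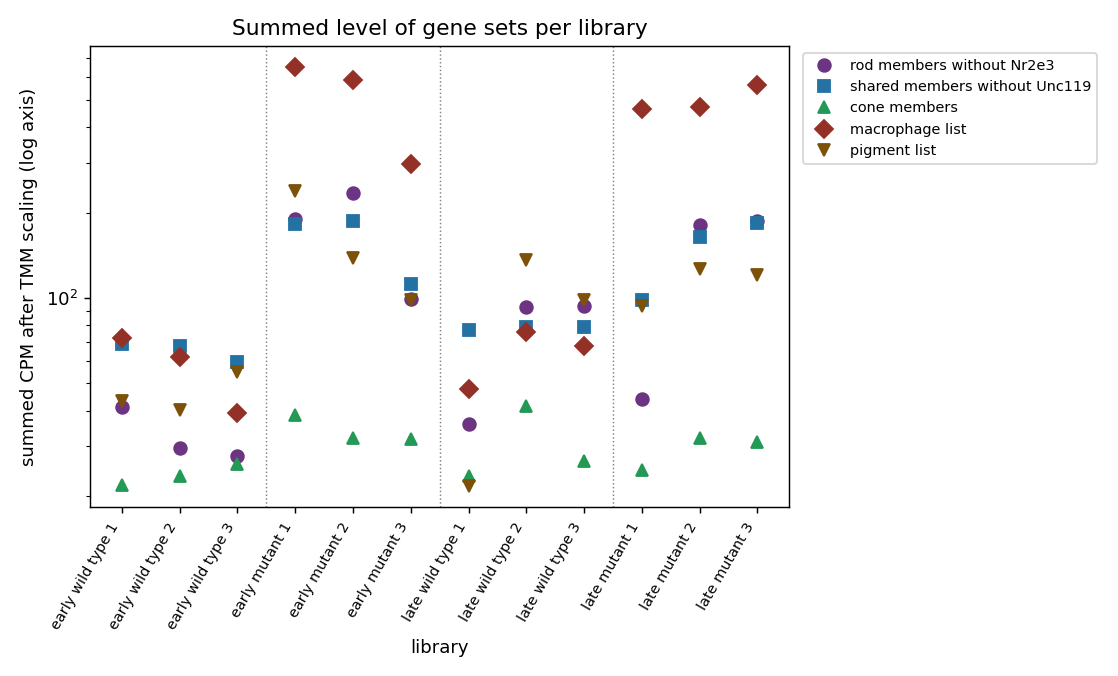
Summed CPM (log axis) of the rod genes without Nr2e3, the shared genes without Unc119, the cone genes, the macrophage list and the pigment list in each of the 12 libraries, 1 point per set and library, with dotted lines between groups. The macrophage sum is at 296.2 CPM or more in all 6 mutant libraries and at 76.0 CPM or less in all 6 wild-type libraries, while rod and shared sums are low in late mutant library 1.

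The first comparison asked which genes differ between mutant and wild-type endothelium at the early stage. Pdc, Pde6b and Prph2 were higher in early mutants, and no member was lower. These 3 are 7.32% of the 41 members tested, against 0.557% of all 17965 genes called higher, 0.0334% called lower and 0.59% in either direction (edgeR quasi-likelihood F test, Benjamini-Hochberg adjusted p under 0.05 over all genes). Of the 41, 35 had a log2 fold change above 0 and the median was 1.30, against 43.1% above 0 and a median of -0.11 over all genes tested. The median was 2.68 for the 11 rod genes, 0.50 for the 8 cone genes tested and 1.06 for the 22 shared genes. Cnga3 and Cngb3, the 2 subunits of the cone channel, were too low to be tested.

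The mutant libraries all lay above the wild-type libraries in 23 of the 43 genes and below in none. Counted over the 41 tested, that is 56.1%, against 10.1% of all genes tested that did so upwards and 11.8% downwards. Rods supplied 10 of the 23 (all rod genes but Nr2e3), cones 4 (Pde6h, Gnat2, Gnb3 and Opn1sw) and the shared genes 9. An unadjusted edgeR p under 0.05 was found for 22 of the 41 members tested, against 1575 of all 17965 genes tested.

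The count of 3 depended on single libraries. Without early wild-type library 3 no member passed, and only Pde6b passed without early mutant library 1 and only Pdc without early wild-type library 1. With late libraries left out, which enter through the shared estimate of spread, it was 8 without late mutant library 1 and 9 without late wild-type library 1. Other settings gave 14 (no filter on low counts), 13 (DESeq2 Wald test) and 11 (early libraries alone), all higher, and limma-voom called 2, Pdc and Rom1. The share of all genes called under each of these settings is not set beside these counts. A higher count is therefore not read as a stronger difference in the members.

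In the rod cascade, Gnat1 stood at 50.0, 70.5 and 28.7 CPM in early mutant libraries 1 to 3 and at 8.95, 4.75 and 2.89 CPM in early wild type. The groups did not overlap and the log2 fold change was 3.17 ± 0.68 (SE), yet it did not pass (edgeR adjusted p = 0.0662). It passed without late mutant library 1 (adjusted p = 0.00365), without late wild-type library 1 (0.0436) and without late wild-type library 2 (0.0241).

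Pde6b, the catalytic beta subunit of rod phosphodiesterase, was at 9.37, 15.8 and 4.02 CPM in mutants and at 1.09, 0.791 and 0.515 CPM in wild type. Every mutant library was above every wild-type one, and the level was 12.3-fold higher (log2 fold change 3.62 ± 0.68, adjusted p = 0.0142). The call was lost without early wild-type library 1, 2 or 3 (adjusted p = 0.0593, 0.071 and 0.115). Pde6g was at 50.1, 46.1 and 20.8 CPM in mutants and 5.76, 5.71 and 4.10 CPM in wild type. Its log2 fold change was 2.91 ± 0.71 without passing (adjusted p = 0.132), and it passed without late mutant library 1 (0.0211), late wild-type library 1 (0.0207) or late wild-type library 3 (0.0159).

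The other rod genes did not pass, and their log2 fold changes ranged from -1.03 to 3.23. Sag, rod arrestin, was at 12.6 to 34.5 CPM in early mutants and 2.68 to 4.98 in wild type (log2 fold change 2.68 ± 0.64, adjusted p = 0.098). Slc24a1, the rod sodium-calcium exchanger, had 2.97 ± 0.72 (adjusted p = 0.0788) and Cnga1, the alpha subunit of the rod channel, 3.23 ± 0.80 (0.087). Gngt1, the gamma subunit of rod transducin, had 2.66 ± 0.77 (adjusted p = 0.262). Nrl and Pde6a, the catalytic alpha subunit, had log2 fold changes of 1.99 and 1.62. Cngb1, the beta subunit of the same channel as Cnga1, was at 13.6 to 23.4 CPM in mutants and 10.0 to 13.2 in wild type, and its log2 fold change was 0.51 ± 0.30 (0.602).

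Nr2e3 was the rod gene with the opposite sign. Its level was 31.3, 59.5 and 48.6 CPM in early mutants and 144.6, 85.3 and 54.6 CPM in early wild type. The groups overlapped, and the log2 fold change of -1.03 ± 0.32 did not pass (adjusted p = 0.265).

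Among the cone genes, none passed at the early stage. Gngt2, the cone transducin gamma subunit, was at 10.8, 5.63 and 8.85 CPM in mutants and 8.35, 3.12 and 7.52 CPM in wild type. Its groups overlapped (log2 fold change 0.41 ± 0.43, edgeR adjusted p = 0.726). Gnb3, the cone transducin beta subunit, was at 13.3, 13.8 and 15.2 CPM in mutants and at 9.10, 13.2 and 11.4 CPM in wild type. The highest wild-type library of Gnb3 lay just under the lowest mutant one, and the log2 fold change was 0.32 ± 0.28 (adjusted p = 0.687). Opn1mw was at 4.02, 1.97 and 1.73 CPM in mutants and 1.57, 0.923 and 3.20 CPM in wild type, with overlap. Its log2 fold change was 0.43 ± 0.54 (adjusted p = 0.776), and 1.05 without early wild-type library 3. It was -0.03 without early mutant library 1.

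Gnat2, the cone transducin alpha subunit, had the smallest adjusted p of the cone genes. It was at 2.32 to 3.42 CPM in early mutants and 0.722 to 0.898 in wild type (log2 fold change 1.89 ± 0.50, adjusted p = 0.132). Opn1sw had 1.30 (adjusted p = 0.434). Pde6h, the cone inhibitory subunit, had 2.17 and Arr3, cone arrestin, 0.58.

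**Figure D3:**
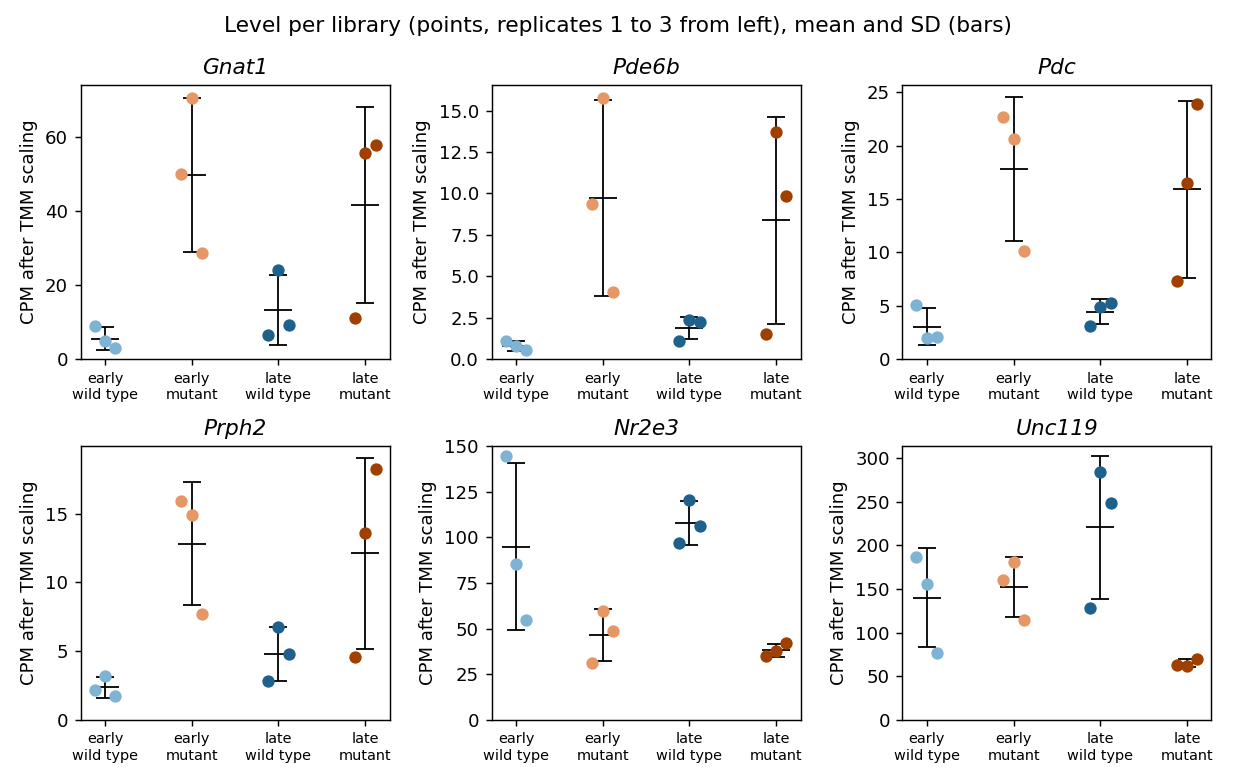
CPM of Gnat1, Pde6b, Pdc, Prph2, Nr2e3 and Unc119 in each library, with replicates 1 to 3 from left to right in each group and bars for the group mean and SD of 3 libraries. Pde6b, Pdc and Prph2 show separated groups at the early stage, and Unc119 separates at the late stage with 61.4 to 70.1 CPM in mutants and 128.6 to 284.2 CPM in wild type.

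Of the genes shared by rods and cones, Pdc and Prph2 passed at the early stage. Pdc, phosducin, which binds the transducin beta-gamma subunits, was at 22.7, 20.6 and 10.1 CPM in mutants and 5.05, 1.98 and 2.09 CPM in wild type. It was 5.86-fold higher (log2 fold change 2.55 ± 0.47, adjusted p = 0.00969). The call was lost without early mutant library 1 (adjusted p = 0.0521) or early wild-type library 3 (0.0573), and the log2 fold change was 3.14 without early wild-type library 1. Prph2, peripherin of the disc rim, was at 15.9, 14.9 and 7.70 CPM in mutants and 2.13, 3.21 and 1.75 CPM in wild type. It was 5.45-fold higher (2.45 ± 0.48, adjusted p = 0.0162), and the call was lost without early mutant library 1 (0.081), early wild-type library 1 (0.078) or early wild-type library 3 (0.0846).

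Rom1, the partner of Prph2 at the disc rim, was at 70.5, 65.3 and 50.4 CPM in early mutants and 31.3, 33.5 and 16.1 CPM in early wild type. The groups did not overlap, and the log2 fold change of 1.20 ± 0.36 did not pass (adjusted p = 0.224), though it passed without late wild-type library 1 (0.0256). Guca1a was at 24.0, 30.2 and 17.8 CPM in mutants and 13.3, 7.47 and 18.9 CPM in wild type, with overlap in the highest wild-type library (0.86 ± 0.38, adjusted p = 0.529). Unc119 was at 160.4, 181.1 and 114.0 CPM in mutants and 187.1, 155.7 and 76.6 CPM in wild type. Its groups overlapped and its log2 fold change was 0.12 ± 0.33 (adjusted p = 0.902), or -0.16 without early wild-type library 3.

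Crx, the homeobox factor that drives most photoreceptor genes, had the highest fitted change of any member at the early stage, 4.01 ± 1.29 on the log2 scale, at low counts and without passing (adjusted p = 0.301). It was at 3.06, 2.65 and 0.588 CPM in early mutants and at 0.150, 0.132 and 0.103 CPM in wild type, near the level of 3 counts. Rbp3, the retinoid carrier between photoreceptors and pigment epithelium, had 3.20 ± 0.90 (adjusted p = 0.192). Tulp1, needed for transport into the outer segment, had 2.66, Aipl1, a chaperone of phosphodiesterase 6, had 2.56 and Rcvrn, recoverin, had 2.33. The axonemal protein Rp1 had 2.09. Grk1 (rhodopsin kinase), Guca1b (a second cyclase activator) and the retinal exporter Abca4 had 1.38, 1.26 and 0.92. Rdh12, a retinol dehydrogenase, and the GAP subunits Rgs9 and Rgs9bp had values between 0.05 and 0.35. The cyclases Gucy2e and Gucy2f had values of -0.19 and -0.50, and the matrix proteoglycans Impg1 and Impg2 values of 0.30 and -1.24, all with SEs over 1.

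At the late stage, the members moved in both directions. Pdc and Rp1l1 were higher in late mutants and Unc119 and Nr2e3 were lower. Each pair is 4.88% of the 41 members tested, against 2.77% of all genes tested that were called higher and 2.71% called lower. Both directions together are 9.76% of the members, against 5.47% of all genes tested. Of the 41, 34 had a log2 fold change above 0 and the median was 0.99, against 50.1% and 0.001 over all genes. The medians were 1.33 for rod, 1.02 for cone and 0.97 for shared genes, and they were the same with Rp1l1 and Pde6c set at their lower bounds. An unadjusted edgeR p under 0.05 was found for 19 of the 41 members, against 5040 of all 17965 genes tested.

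The mutant libraries lay above all wild-type libraries in 9 genes (Nrl, Gnat2, Arr3, Rom1, Grk1, Rp1l1, Aipl1, Impg1 and Pdc) and below all in 5 (Cngb1, Nr2e3, Gnb3, Opn1mw and Unc119). That is 22% and 12.2% of the 41 tested, against 14.9% and 10.9% of all genes tested. For Rp1l1 the separation rested on 1 count in late mutant library 1 against 0 in late wild type. Of the 4 calls, 1 remained without late mutant library 3 or late wild-type library 2, namely Unc119, and 2 remained without late wild-type library 3. The DESeq2 Wald test called 9, a count given without the share of all genes called by that test.

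Unc119 was lowest in the 3 late mutant libraries, with 63.1, 61.4 and 70.1 CPM, and stood at 128.6, 284.2 and 248.7 CPM in late wild type. The groups did not overlap, and the level was 3.40-fold lower (log2 fold change -1.77 ± 0.34, adjusted p = 0.00781). It was called under all 20 alternatives tried, with adjusted p from 1.04e-05 to 0.0456. Nr2e3 was at 34.9, 37.6 and 41.8 CPM in late mutants and 96.7, 120.4 and 106.0 CPM in late wild type. It was 2.83-fold lower (-1.50 ± 0.32, adjusted p = 0.0135), and the call was lost without late mutant library 1 (0.0712), late mutant library 3 (0.0619) or late wild-type library 2 (0.0529).

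Pdc was at 7.36, 16.5 and 23.9 CPM in late mutants and 3.11, 4.90 and 5.28 CPM in late wild type. It was 3.60-fold higher without overlap (log2 fold change 1.85 ± 0.45, edgeR adjusted p = 0.0263). The call was lost without late mutant library 3 (0.106), late wild-type library 2 (0.0776) or late wild-type library 3 (0.061). Pde6b was at 1.51, 13.7 and 9.88 CPM in mutants and 1.11, 2.33 and 2.21 CPM in wild type. Late mutant library 1 fell inside the wild-type range, and the log2 fold change of 2.15 ± 0.63 did not pass (adjusted p = 0.052). It passed without late mutant library 1 (2.65, adjusted p = 0.0171). Prph2 was at 4.57, 13.6 and 18.2 CPM in mutants and 2.85, 6.74 and 4.78 CPM in wild type (1.34 ± 0.46, adjusted p = 0.0793), and it too passed without late mutant library 1 (1.74, 0.0479).

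Late mutant library 1 was the low library of its group for every rod gene but Nrl. Gnat1 was at 11.0, 55.7 and 57.9 CPM in late mutants and 6.52, 24.0 and 9.17 CPM in late wild type. Its log2 fold change was 1.65 ± 0.64 (adjusted p = 0.121), 2.11 without late mutant library 1 and 2.40 without late wild-type library 2, none passing. Pde6g was at 8.29, 38.7 and 40.9 CPM in mutants and 4.16, 12.2 and 31.0 CPM in wild type. The groups overlapped, and the log2 fold change was 0.89 ± 0.66 (adjusted p = 0.395) and 1.85 without late wild-type library 3. Of the remaining rod genes, Nrl had 2.31, Cnga1 1.35, Slc24a1 1.34, Pde6a 1.33, Sag 1.06, Gngt1 0.41 and Cngb1 -0.65 on the log2 scale, without passing. The macrophage list was lowest there too, close to library 2, at 464.1, 471.6 and 565.3 CPM in late mutants 1 to 3. Pigment genes were also lowest there (93.3, 126.5 and 120.4 CPM), as were ciliary body and iris genes (146.4, 247.8 and 188.5 CPM). Retinal pigment epithelium (34.6, 76.7 and 51.4 CPM) and bipolar cell genes (4.44, 26.8 and 11.6 CPM) did the same. Summed lists of other photoreceptor genes, Müller glia, lens, keratocytes, corneal epithelium and corneal endothelium were highest there. The list of amacrine, horizontal and ganglion cells lay between. Single genes made up most of 2 of these sums. Gnb1 was at 634.6, 202.0 and 297.9 CPM within other photoreceptor sums of 820.5, 414.8 and 508.2 CPM in late mutants 1 to 3. Apoe was at 37745, 35386 and 36451 CPM within Müller glia sums of 38630, 36127 and 37238 CPM. These 2 sums therefore do not describe the other genes of their lists.

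Among late cone genes, Gngt2 was at 6.09, 6.99 and 9.62 CPM in mutants and 3.18, 9.71 and 6.84 CPM in wild type (log2 fold change 0.20 ± 0.43, adjusted p = 0.785). Gnb3 was at 10.2, 10.1 and 9.58 CPM in mutants and 12.7, 21.2 and 14.3 CPM in wild type. Every mutant library was below every wild-type one, without passing (-0.69 ± 0.28, edgeR adjusted p = 0.125). Opn1mw was at 1.10, 1.96 and 0.971 CPM in mutants and 3.34, 4.41 and 2.25 CPM in wild type (-1.31 ± 0.55, adjusted p = 0.136). Opn1sw, the other cone opsin, had a log2 fold change of the opposite sign, 0.98 ± 0.48 (0.185). Gnat2 had 1.45, Arr3 1.47 and Pde6h 1.05, without passing.

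Rom1 was at 54.5, 56.3 and 50.7 CPM in late mutants and 46.2, 20.7 and 15.7 CPM in late wild type (log2 fold change 0.97 ± 0.35, adjusted p = 0.096). Late wild-type library 1 was its highest wild-type library, and without it the value was 1.69 and passed (adjusted p = 0.00392). Guca1a was at 11.9, 21.6 and 28.5 CPM in mutants and 8.49, 15.4 and 17.5 CPM in wild type, with overlap (0.58 ± 0.38, adjusted p = 0.317). Of the other shared genes, Crx had 3.03, Impg1 2.85, Grk1 2.49, Aipl1 2.19 and Guca1b 1.33 on the log2 scale, and none passed. Tulp1, Rbp3 and Gucy2f had 0.99, 0.99 and 0.98, Abca4 0.77 and Rcvrn 0.59, again without passing. Rp1, Rgs9bp, Gucy2e, Rdh12, Impg2 and Rgs9 lay between -0.38 and 0.17.

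Rp1l1, a protein of the photoreceptor axoneme, was called on few counts. It had 0 counts in all 3 late wild-type libraries and 1, 62 and 34 counts in late mutants 1 to 3. By group means, against a wild-type limit of 3 counts per library, it was at least 8.89-fold higher in late mutants (edgeR adjusted p = 0.0321). That bound does not hold for late mutant library 1 by itself, whose 1 count was under the limit. The call was lost without late mutant library 2 or 3 and without late wild-type library 2 or 3 (adjusted p 0.0752 to 0.0874). In early wild-type libraries 2 and 3 it had 21 and 32 counts, so it was present in wild type at the early stage, where its fitted log2 fold change was -2.76 ± 1.38 (adjusted p = 0.58). Pde6c, the cone phosphodiesterase, was also at 0 in all late wild-type libraries, with 0, 32 and 11 counts in late mutants 1 to 3. By group means it was at least 3.9-fold higher without passing (edgeR adjusted p = 0.0941), though late mutant library 1 was at 0 too. Early it had a fitted value of -2.51 ± 1.84 (0.657). Cnga3 had 47 counts in early wild-type library 2 and at most 1 in any other library.

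**Figure D4:**
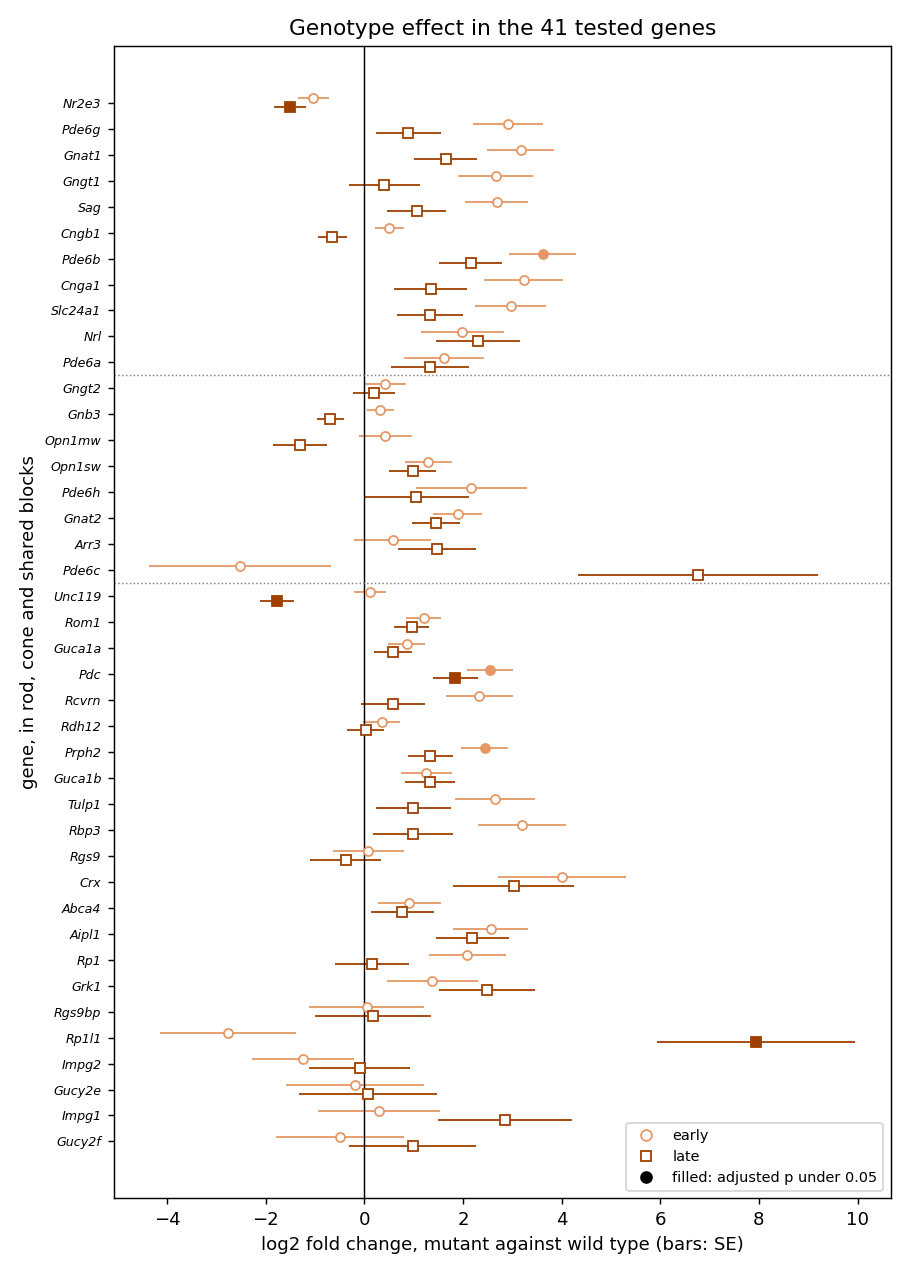
Fitted log2 fold change of mutant against wild type for the 41 tested genes at the early (circles) and late (squares) stage, with bars of 1 SE and filled symbols for adjusted p under 0.05. Early values of the rod genes other than Nr2e3 and Cngb1 lie between 1.62 and 3.62, and Unc119 and Nr2e3 lie below 0 at the late stage; the values of Rp1l1 and Pde6c rest on groups at or near 0 counts.

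The difference of the 2 genotype effects, late minus early, passed for no member in edgeR, with 1 of the 17965 genes (0.00557%) called. Among the 41 members tested, 7 had an unadjusted edgeR p under 0.05, against 2013 of the 17965 genes. DESeq2 called 2 members (Rp1l1 higher and Unc119 lower) and limma-voom 1 (Unc119 lower). These counts are given without the share of all genes called by the same method. The smallest adjusted p values in edgeR were those of Rp1l1 (0.118) and Unc119 (difference -1.89 ± 0.47, adjusted p = 0.125). The difference for Unc119 passed without late wild-type library 1. For the 11 rod genes, 10 had a difference below 0, with a median of -1.52. Over all genes 51.7% were above 0 and the median was 0.03. No rod gene passed. The rod effect was therefore not shown to differ between stages.

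Across stages within a genotype, no member passed in edgeR in mutants or in wild type, and 0% of all genes did. An unadjusted edgeR p under 0.05 was found for 2 of the 41 members in mutants and 6 in wild type. Over all 17965 genes tested it was found for 1174 and 724. DESeq2 and limma-voom each called Unc119 lower in late than early mutants, and neither called a member in wild type. In mutants DESeq2 gave an adjusted p for only a few members. The share of all genes called by these methods is not set beside these calls. In wild type 32 of the 41 log2 differences (78%) were above 0, with a median of 0.54, against 55.9% and 0.07 over all genes. In mutants 15 (36.6%) were above 0, with a median of -0.16, against 53.6% and 0.04. Stage and batch cannot be told apart in these differences.

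Dividing each gene's FPKM by that of Gnat1 in the same library shows how far each member kept its proportion to the rod transducin. Gnat1 itself spanned 21.7-fold between its lowest and highest library. Over the 12 libraries the ratio to Gnat1 spanned 2.54-fold for Pde6b, 3.20-fold for Sag, 3.21-fold for Prph2, 3.50-fold for Slc24a1 and 3.54-fold for Pdc. Other rod genes spanned more, 6.08-fold for Gngt1, 6.65-fold for Pde6g, 21.7-fold for Cnga1, 32.0-fold for Nrl and 69.5-fold for Pde6a, the last 3 at or under 3 counts in 1 library each. The ratio spanned 30.3-fold for Nr2e3, 29.7-fold for Unc119, 23.9-fold for Gnb3, 23.1-fold for Cngb1, 32.7-fold for Gngt2 and 65.9-fold for Opn1mw, and it was widest for Impg2, 149.6-fold, among the members with a count in every library. Of the 32 other members with a count in every library, 17 had a ratio that spanned less than their own level, 8 of 10 rod genes, 1 of 6 cone genes and 8 of 16 shared genes. All ratios share the denominator Gnat1, so they are not independent of each other, and they were computed after the values were seen.

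**Figure D5:**
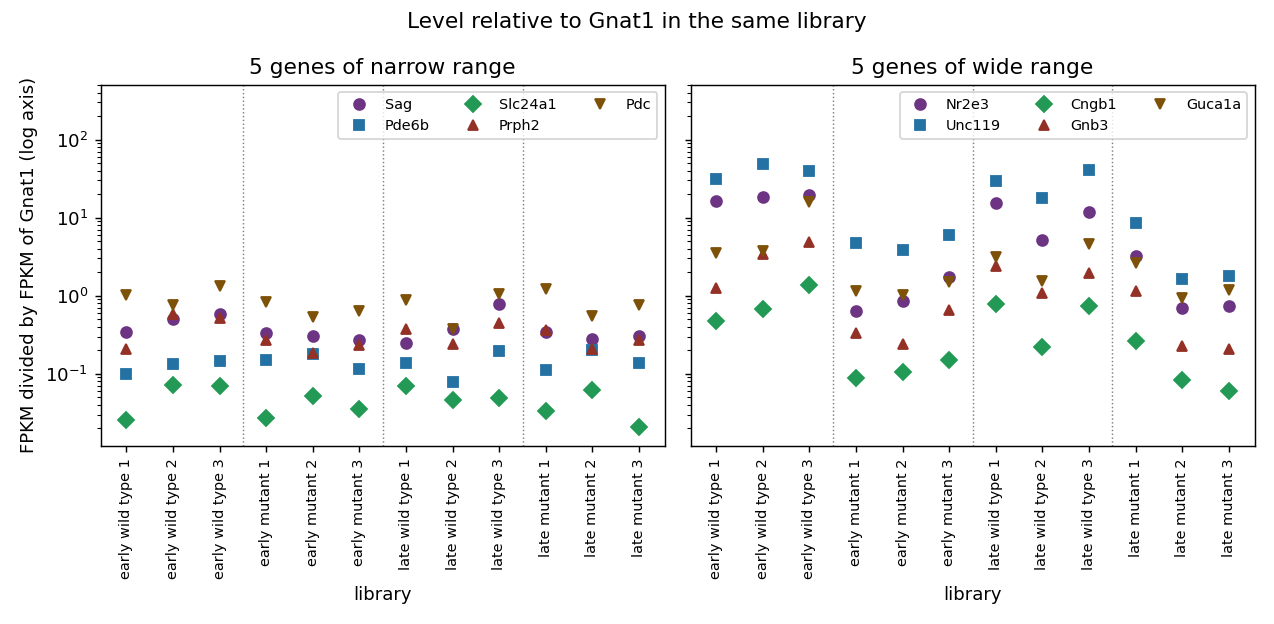
FPKM of 10 genes divided by that of Gnat1 in the same library (log axis), for 5 genes whose ratio spanned 3.54-fold or less (left) and 5 whose ratio spanned 16.8-fold or more (right), with dotted lines between groups. The genes on the right lie higher in wild-type than in early mutant libraries, with late mutant library 1 above late mutant libraries 2 and 3.

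A second list of 37 photoreceptor genes outside the 43 held 33 tested genes. None passed early, with 23 above 0 and a median log2 fold change of 0.70. At the late stage Prom1, prominin of the disc base, was 3.94-fold higher (adjusted p = 0.011), while Thrb, a thyroid hormone receptor that patterns cone opsins, was 3.27-fold lower (0.0124) and Cacna2d4, a calcium channel subunit of the synapse, 2.33-fold lower (0.0365). The late median of that list was 0.13.

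Markers of other cells in the eye moved with the photoreceptor genes in part. The 13 bipolar cell genes, which mark the next neuron of the retina, had 0 of 11 tested called at either stage, with medians of 0.08 and -0.22. Without Trpm1, which pigment cells also make, they summed to 1.21 to 15.1 CPM in all libraries. Of the amacrine, horizontal and ganglion cell list, Lhx1 had at most 3 counts in every library, 0 of 12 tested were called early and 2 were lower late (Tfap2b, which also stands on the corneal endothelial list, and Rbpms). Of 11 Müller glia genes tested, 0 were called early, and late Dkk3 was higher and Glul lower. Of 9 genes of the retinal pigment epithelium, 0 were called early, with a median of 0.16, and Rdh10 was lower late. Their early sums did not overlap, with 53.5 to 91.9 CPM in mutants and 43.6 to 47.7 CPM in wild type, while their late sums did.

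The 10 pigment genes had 0 calls at either stage and medians of 2.19 early and 0.46 late. They summed to 98.4 to 238.7 CPM in early mutants and 40.3 to 54.6 CPM in early wild type, without overlap. The rod genes without Nr2e3 also did not overlap early, while all 11 rod genes did. At the late stage they summed to 93.3 to 126.5 CPM in mutants and 21.6 to 136.4 CPM in wild type. The 14 macrophage genes had 8 higher early and 12 higher late, with medians of 2.80 and 2.94, and summed to 296.2 to 653.0, 39.4 to 72.0, 464.1 to 565.3 and 47.6 to 76.0 CPM in early mutants, early wild type, late mutants and late wild type. Lens crystallins had 0 of 15 called early, with a median of -1.34, and Cryaa, Cryba1 and Cryba2 higher late. None of the 10 pigment or 14 macrophage genes was at or under 3 counts in every library. Of the other lists, ciliary body and iris epithelium had 0 of 6 tested called early and a median of 0.94, and its sums did not overlap, with 278.2 to 535.5 CPM in early mutants and 126.3 to 225.4 CPM in early wild type. Late it had 1 lower. Keratocyte genes had 3 of 10 higher early and 3 higher and 1 lower late, with medians of 0.92 and 0.94, and their early sums overlapped. Corneal epithelial genes had 0 of 9 called at either stage, with medians of 1.43 early and 0.01 late. The part of pigmented tissue, ciliary body, retina or infiltrating cells in the levels of the photoreceptor genes was not tested.

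Some members overlap other protein-coding genes in the RefSeq table of GRCm38.p6, and no source used here gives the strand setting of the authors' counting. Opn1sw overlaps Calu, which was at 51.8 to 261.9 CPM and itself higher in late mutants (log2 fold change 1.39, edgeR adjusted p = 0.0126). Guca1a overlaps 1700001C19Rik (2.17 to 7.73 CPM), Gngt2 overlaps Abi3 (3.05 to 9.05 CPM) and Gnat2 overlaps Gm12500 (0.131 to 1.14 CPM). Aipl1 overlaps Pimreg (at most 0.574 CPM), and Rcvrn overlaps Glp2r (at most 0.44 CPM). Levels of Opn1sw, Gngt2, Gnat2, Guca1a, Aipl1 and Rcvrn are uncertain to that extent.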

How the data were processed

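The authors deposited a table of counts per gene and a table of FPKM for 12 mouse corneal endothelium libraries, made with a directional poly(A) library kit per the labels' protocols. Per the submitters' processing notes the tools were fastp, HISAT2, HTSeq and DESeq2 with build GRCm39; no source used here gives their versions or the strand setting. The deposited FPKM equals the count divided by gene length and library total, so it has no composition scaling. The authors' tables of fold changes were not used.

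All 12 libraries were fitted at once in edgeR 4.0.16 (R 4.3.3) on the deposited counts: TMM scaling, filterByExpr on the 4 groups, robust quasi-likelihood F test, Benjamini-Hochberg adjustment over the 17965 genes kept of 32761, threshold 0.05, 8 residual degrees of freedom. A standard error is the absolute log2 fold change divided by the square root of F. Alternatives were DESeq2 1.42.0, limma-voom 3.58.1, other filters and scaling, a replicate block and each library left out. Genes named with full values were those past the threshold and the 3 of each class with the highest mean FPKM. The members and the marker lists were chosen with earlier results of these data known. Tested on simulated data of 17965 genes, the fit recovered 93 (early) and 95 (late) of 100 genes changed 4-fold. Of 100 changed 2-fold it recovered 19 and 10, with 3 and 7 false calls. The changed genes were drawn only above a lower limit of mean CPM. These rates therefore do not describe the many members under that limit. Among them are Crx, Nrl, Cnga1, Slc24a1, Rbp3, Tulp1, Rcvrn, Gnat2, Opn1sw and Opn1mw. Intervals and limits from counts cover counting error only. Promoter windows came from RefSeq, GRCm38.p6.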

Additional observations from a re-analysis of the deposited data

How the results depend on the processing

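The median log2 fold change of the tested members stayed above 0 in all 20 alternatives at the early stage (1.12 to 1.69) and at the late stage (0.77 to 1.45), while the number called moved. At the early stage 3 members passed, against 14 with no filter on low counts, 13 with the DESeq2 Wald test, 11 with the early libraries alone and 5 with the replicate block, and 0 to 9 with 1 library left out. At the late stage 4 passed, against 11 with no filter, 9 with DESeq2 and 1 to 5 with 1 library left out, the lowest without late mutant library 3 or late wild-type library 2. The replicate block gave 3 late calls and 0 for the difference of the effects. Same-numbered libraries of a stage correlated at -0.088 to 0.081, so the numbers were not taken as pairs. For the difference of the effects 0 passed, against 4 with no filter, 2 with DESeq2, 1 with limma-voom, 1 without both early wild-type library 2 and late wild-type library 1, and 0 to 1 with 1 library left out. Late against early, 0 passed in mutants, against 1 each with no filter, DESeq2 (which gave an adjusted p for only 3 members) and limma-voom, and 0 in wild type, against 2 with no filter. These counts stand without the share of all genes called under the same setting, and the cause of the shifts was not tested. The mean summed level of the members was 567.1 CPM in early mutants, 356.6 in early wild type, 417.8 in late mutants and 511.2 in late wild type. It was 415.3, 216.8, 353.0 and 290.6 without the highest gene, and 368.8, 121.9, 314.9 and 182.9 without Unc119 and Nr2e3, an alternative added after seeing the data, so the late order of the genotypes turned under both. Some small changes of sign occurred: with 1 library left out, Unc119 early ranged from -0.16 (without early wild-type library 3) to 0.41, Opn1mw early from -0.03 (without early mutant library 1) to 1.05, and Gngt2 late from 0.00 (without late wild-type library 1) to 0.60, or -0.01 without that library and early wild-type library 2. Depth limits Cnga3, Cngb3, Pde6c and Rp1l1, which were at or near 0 in most libraries.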
